A study of Mus musculus with 4 samples.

Results

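The genes described here are 10 regulators of the cell cycle: Trp53, Mdm2, Cdkn1a, Cdkn1b, Cdkn2c, Rb1, Rbl2, Ccnd1, Ccnd2 and Ccnd3. RefSeq places 21887 protein-coding genes on the nuclear chromosomes, and these 10 were chosen by name, some of them because peaks were already known there in these lists. The study mapped sites of PHF2 by CUT&RUN, a method in which an antibody guides a nuclease to cut out the DNA around its target. The tissue was gastrocnemius, from the calf, and the mice were C57BL/6 males aged 4 weeks. KO muscle came from mice labelled Phf2 flox/flox;Acta1 Cre+, whose Cre is driven by a skeletal actin promoter active in muscle fibres, and Ctrl muscle from Phf2 flox/flox;Acta1 Cre- mice, so both genotypes carry the floxed alleles. A PHF2 antibody and IgG, a non-specific antibody, gave 1 library each per genotype, 4 in all. The authors' lists held 161 KO PHF2, 1621 Ctrl PHF2, 152 KO IgG and 77 Ctrl IgG peaks. How many animals went into a library is not given in the sources used here. Whole muscle also holds satellite, endothelial and other cells in which Acta1-Cre is not active, and no list separates their nuclei from those of fibres. With 1 library per group there is no test between genotypes. Peak lists measure neither expression nor the deletion of Phf2, so the tissue and genotype labels were not checked by them.

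The protein p53 (Trp53) is a transcription factor that answers DNA damage and other stress, Mdm2 is the ubiquitin ligase that degrades it, and Cdkn1a (p21) is its best known target. Cdkn1a, Cdkn1b (p27) and Cdkn2c (p18) restrain cyclin-dependent kinases, the D cyclins Ccnd1, Ccnd2 and Ccnd3 activate them, and the pocket proteins Rb1 and Rbl2 (p130), which those kinases phosphorylate, hold E2F factors in check. Muscle fibres have left the cell cycle for good, a state that needs pocket proteins and kinase inhibitors. PHF2 is a chromatin protein with a PHD finger that reads methylated histone H3 and a JmjC demethylase domain.

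Peaks were assigned to a gene when they overlapped its RefSeq body, or the 5 kb on either side, by at least 1 bp. No KO PHF2 peak met this rule at any of the 10 genes, while 9 Ctrl PHF2 peaks did, at 6 genes: Trp53, Cdkn1b, Cdkn2c, Rb1, Ccnd1 and Ccnd3. Mdm2, Cdkn1a, Rbl2 and Ccnd2 had no peak in any list, and neither IgG library had a peak at any of the 10. Over all protein-coding genes, the same rule found a KO PHF2 peak at 0.713%, a Ctrl PHF2 peak at 7.38%, a KO IgG peak at 0.155%, a Ctrl IgG peak at 0.064% and a peak in either IgG list at 0.16%. Since presence in the lists was part of the choice of genes, the 6 of 10 is a description and is not set against 7.38% as a result. For KO and IgG, 0 of 10 is close to what those low shares give for any genes. Taking 3 counts as the limit for 0 seen, it allows a share of up to 30.0%. The genes were not drawn at random, so this limit is only rough. A Ctrl PHF2 peak with no KO PHF2 peak in the window was found at 6.8% of all genes.

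**Figure D1:**
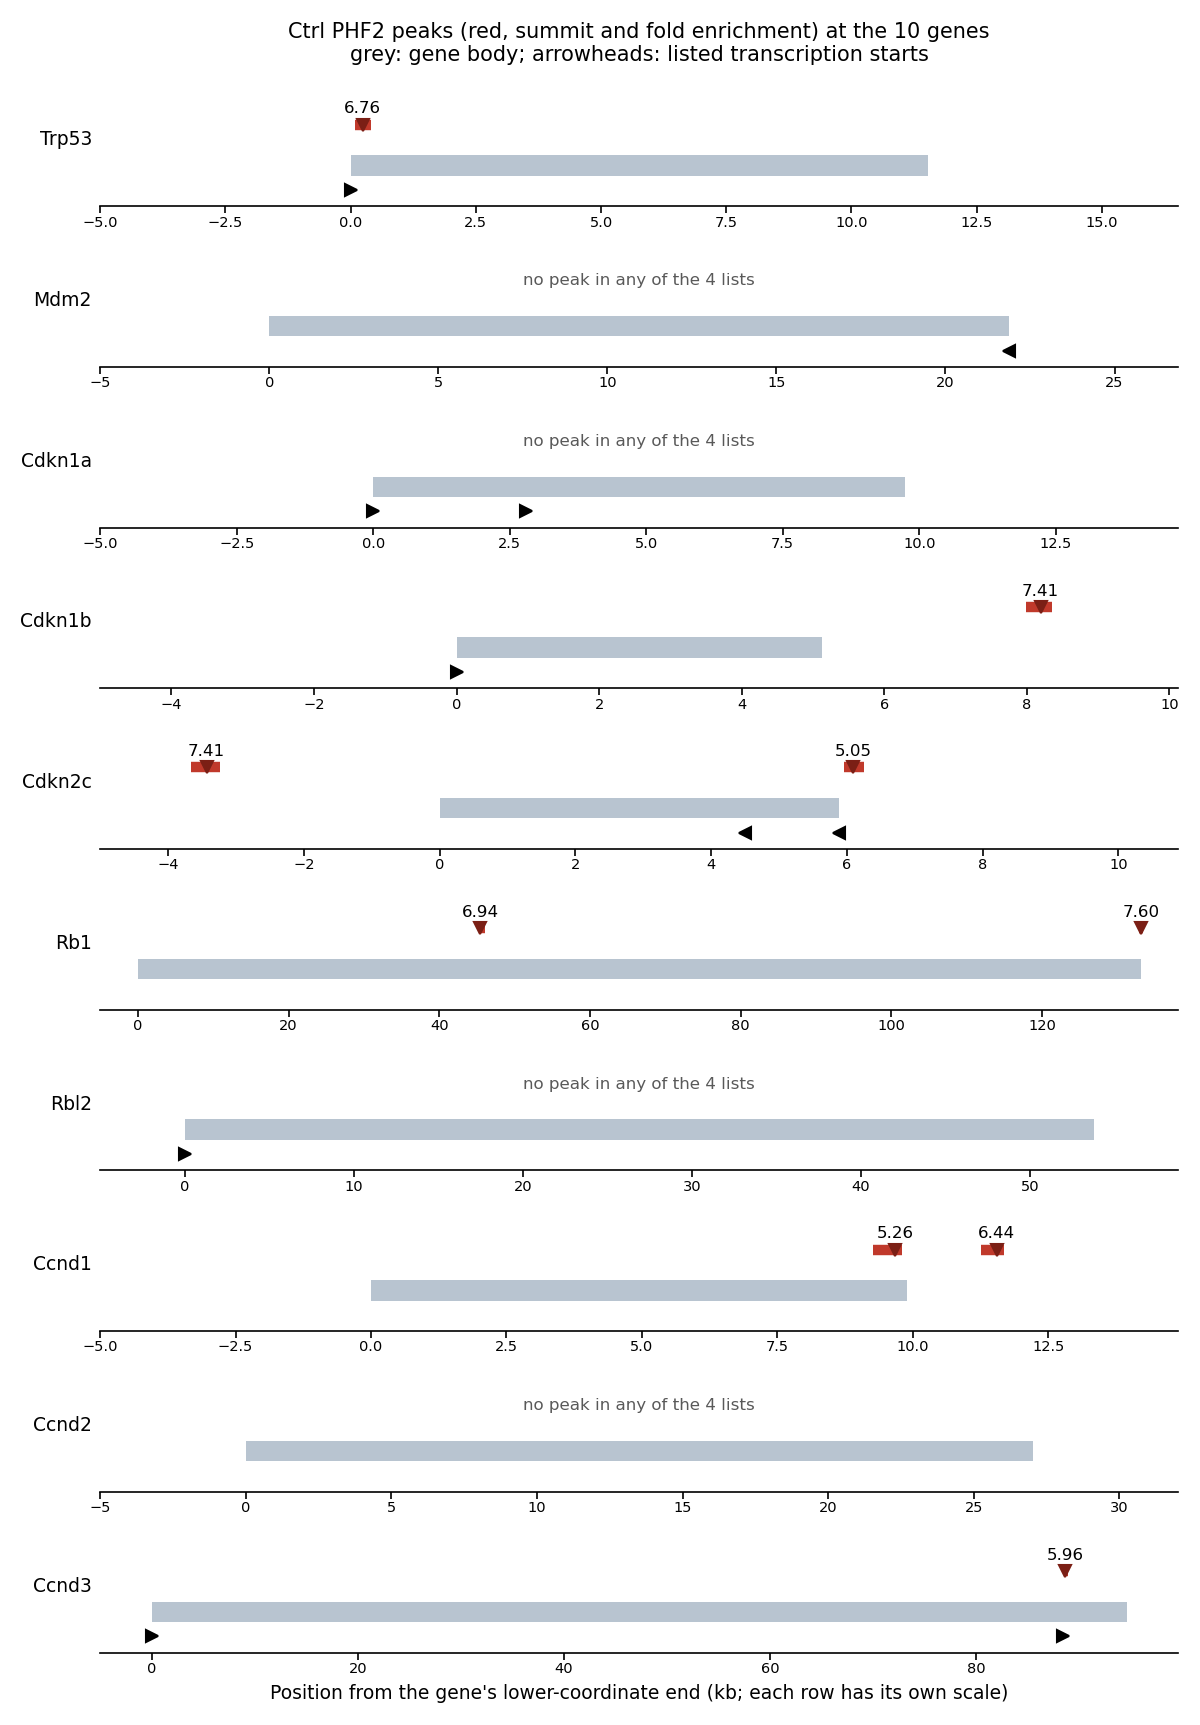
Positions of the Ctrl PHF2 peaks (red bars, triangles at the summits, numbers giving the authors' fold enrichment) along the 10 genes, in kb from each gene's lower-coordinate end, with gene bodies in grey and listed transcription starts as arrowheads; Rb1, Ccnd1 and Ccnd2 have no listed start. A peak sits near a start or a gene end of Trp53, Cdkn2c, Rb1, Ccnd1 and Ccnd3, and the only Cdkn1b peak lies beyond the gene. Cdkn2c and Ccnd1 have a further peak beyond the gene, and Rb1 has another far inside it. The other 4 genes have none.

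Some of these peaks lie closer to the listed start of a neighbour than to that of the gene itself, and the peak beyond Cdkn2c covers such a start. The promoter windows below, from 250 bases before to 50 after a RefSeq start (GRCm38.p6, the assembly behind mm10), are those overlapped by a peak at one of the 10 genes, and are shown because they give the letters under the peaks. They are printed 5′ to 3′ on the strand of the named gene, with bases inside the Ctrl PHF2 peak in capitals. The window of the longer Cdkn2c transcript (chr4:109666707-109667006, minus strand) has 170 of its 300 bases in the peak. That of 9630013D21Rik, a long non-coding RNA gene beyond the far end of Cdkn2c (chr4:109657534-109657833, minus strand), has 110. That of Wrap53, which is transcribed away from Trp53 (chr11:69580201-69580500, minus strand), has 66.
Cdkn2c: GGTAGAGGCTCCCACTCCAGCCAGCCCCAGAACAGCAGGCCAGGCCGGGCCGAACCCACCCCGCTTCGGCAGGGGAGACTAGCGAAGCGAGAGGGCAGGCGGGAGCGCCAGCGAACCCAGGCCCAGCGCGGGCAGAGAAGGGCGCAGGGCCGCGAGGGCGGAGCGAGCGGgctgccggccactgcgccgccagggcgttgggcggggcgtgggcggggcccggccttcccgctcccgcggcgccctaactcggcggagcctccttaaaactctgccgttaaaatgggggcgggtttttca
9630013D21Rik: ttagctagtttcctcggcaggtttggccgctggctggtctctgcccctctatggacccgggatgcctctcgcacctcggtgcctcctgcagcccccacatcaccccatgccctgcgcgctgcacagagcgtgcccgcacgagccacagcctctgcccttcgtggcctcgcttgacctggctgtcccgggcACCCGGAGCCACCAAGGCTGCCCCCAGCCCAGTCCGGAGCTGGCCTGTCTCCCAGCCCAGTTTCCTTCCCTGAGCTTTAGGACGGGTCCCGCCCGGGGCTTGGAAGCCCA
Wrap53: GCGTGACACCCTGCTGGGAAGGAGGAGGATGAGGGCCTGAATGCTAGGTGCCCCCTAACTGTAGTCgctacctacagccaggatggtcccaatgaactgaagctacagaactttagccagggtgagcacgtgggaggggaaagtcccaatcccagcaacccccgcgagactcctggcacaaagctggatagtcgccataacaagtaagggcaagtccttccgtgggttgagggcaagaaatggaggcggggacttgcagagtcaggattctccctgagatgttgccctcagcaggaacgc
The Cdkn2c window had a GC content of 73.3%, 33 CpG dinucleotides and 4 copies of the GC box GGGCGG, counted on both strands, of which 1 lay inside the peak. The 9630013D21Rik window had 68.3% GC, 18 CpGs and 1 GC box, which lay inside the peak. The Wrap53 window had 57.3% GC, 9 CpGs and no GC box.

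Trp53 (Gene ID 22059, chromosome 11, 69580348 to 69591873 in mm10) had 1 Ctrl PHF2 peak, from 69580435 to 69580748, 314 bp wide. Its summit lay inside the gene, 234 bp downstream of the listed start of Trp53 and 343 bp from that of Wrap53, which encodes a telomerase and Cajal body protein. These 2 starts point away from each other and are 109 bp apart, so the peak cannot be given to one gene alone. The authors' fold enrichment, which compares the scaled pileup at the summit with the peak caller's local background after 1 is added to both, was 6.76, with a -log10 q of 5.51. The summit held 18 tags (exact Poisson 95% interval 10.7 to 28.4) over a local background of 1.35 tags. Tags are sequenced fragments counted at the summit, recovered from the authors' fold and -log10 p, and all such intervals cover counting error only. It had the most tags of the 9 peaks but the fifth highest fold, and its local background was the second highest.

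Of the p53 loop partners, neither Mdm2 nor Cdkn1a had a peak. Mdm2 (Gene ID 17246, chromosome 10, 117688875 to 117710758) lay 2.30 Mb from the nearest KO PHF2 peak and 1.11 Mb from the nearest Ctrl PHF2 peak. Cdkn1a (Gene ID 12575, chromosome 17, 29090979 to 29100722) lay 2.58 Mb from the nearest KO PHF2 peak and 289 kb from the nearest Ctrl PHF2 peak. Neither distance is near the 5 kb limit, so no wider window of a few kb would have changed the absence.

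Among the other kinase inhibitors, Cdkn1b (Gene ID 12576, chromosome 6, 134920401 to 134925525) had a single Ctrl PHF2 peak, from 134928388 to 134928753 and 366 bp wide, which starts 2863 bp past the end of the gene. Its summit was 8194 bp downstream of the Cdkn1b start and 497 bp from the listed start of Lockd, a long non-coding RNA gene downstream of Cdkn1b. Fold enrichment was 7.41, with 14 tags (7.65 to 23.5) over a background of 0.556. The start of Cdkn1b itself carried no peak.

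Cdkn2c (Gene ID 12580, chromosome 4, 109660876 to 109666756, minus strand) had 2 Ctrl PHF2 peaks. The one beside its own start ran from 109666837 to 109667128. Its width of 292 bp is the lowest in both the KO and the Ctrl PHF2 lists, and many other Ctrl peaks share it. The summit was 214 bp upstream of the start, with a fold of 5.05 and 14 tags (7.65 to 23.5) over a background of 1.54 tags, the highest background and the lowest fold of the 9. The other ran from 109657217 to 109657643, beyond the 3′ end of Cdkn2c, with its summit 139 bp from the nearer listed start of 9630013D21Rik. It had the same 14 tags over a lower background of 0.556, and its fold was 7.41.

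Of the pocket proteins, Rb1 had 2 Ctrl PHF2 peaks and Rbl2 none. Rb1 (Gene ID 19645, chromosome 14, 73192858 to 73325951) had one across its upper end, from 73325805 to 73326208, with the summit 81 bp beyond the gene. Its fold of 7.60 was the highest of the 9 peaks, and 75.2% of all Ctrl PHF2 peaks had a lower one. It held 17 tags (9.90 to 27.2). The other peak, from 73238081 to 73238920, lay 45.5 kb inside Rb1 and within Lpar6, a lysophosphatidic acid receptor gene nested in it, with the summit 419 bp from the Lpar6 start. At 840 bp it was the widest of the 9, with a fold of 6.94 and 13 tags (6.92 to 22.2). Rbl2 (Gene ID 19651, chromosome 8, 91070057 to 91123844) lay 4.23 Mb from the nearest KO PHF2 peak and 161 kb from the nearest Ctrl PHF2 peak.

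The D cyclins differed as well. Ccnd1 (Gene ID 12443, chromosome 7, 144929931 to 144939831) had 2 Ctrl PHF2 peaks at its upper end. One, from 144939198 to 144939736, had its summit 222 bp inside the gene, a fold of 5.26, a -log10 q of 2.65, the lowest of the 9, and 12 tags (6.20 to 21.0). The other, from 144941195 to 144941618, had its summit 1653 bp beyond the gene, a fold of 6.44 and 13 tags (6.92 to 22.2). It was the only one of the 9 with no listed start or gene end within 500 bp of its summit. Ccnd3 (Gene ID 12445, chromosome 17, 47505051 to 47599689) had 1 peak, from 47593579 to 47593996, near the second of its listed starts, which are 88.4 kb apart. The summit was 253 bp downstream of that start, with a fold of 5.96 and 13 tags (6.92 to 22.2), and no peak lay at the first. The authors' values for this Ccnd3 peak could also be solved, less closely, with 9 tags. Ccnd2 (Gene ID 12444, chromosome 6, 127125162 to 127152188) lay 18.9 Mb from the nearest KO PHF2 peak and 1.96 Mb from the nearest Ctrl PHF2 peak.

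**Figure D2:**
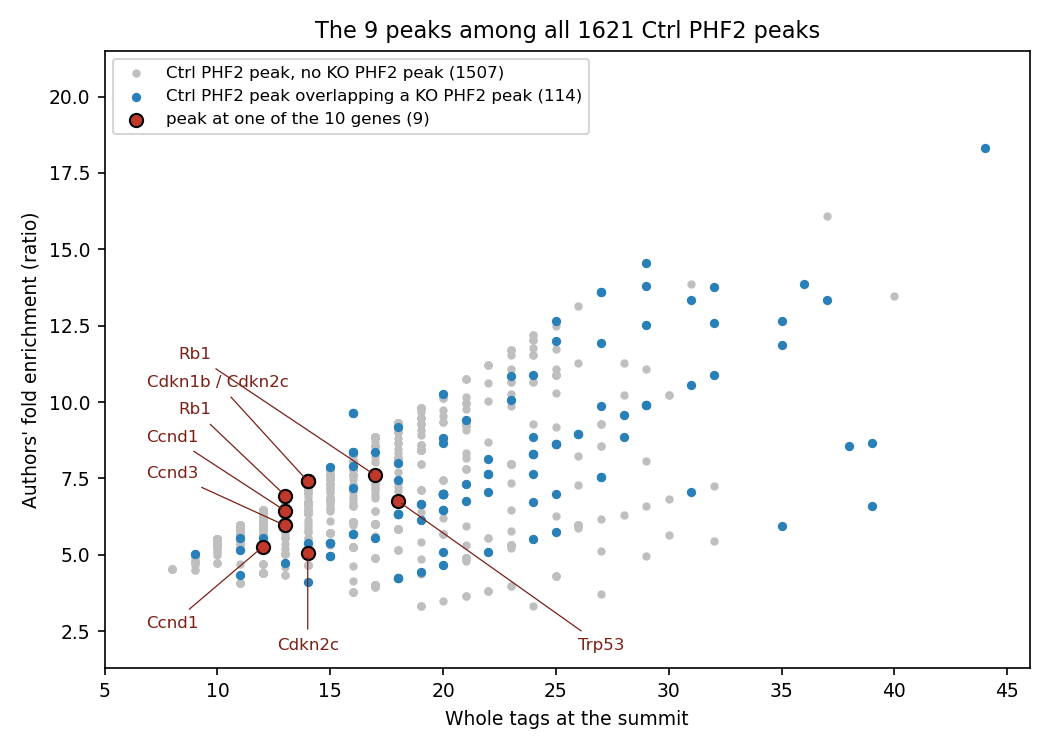
Authors' fold enrichment (ratio, vertical axis) against whole tags at the summit (horizontal axis) for all 1621 Ctrl PHF2 peaks, with the 114 that overlap a KO PHF2 peak in blue and the 9 at the genes described in red. The red points lie between 12 and 18 tags and between 5.05 and 7.60 in fold, in the dense lower left of the cloud.

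As a group these were ordinary peaks of the Ctrl list. Their median fold was 6.76, against 6.37 over all 1621 Ctrl PHF2 peaks. Their median width was 418 bp, against 505 bp, and their median of 14 tags stood beside 15. None was among the 161 Ctrl peaks of highest fold, which begin at 8.94. Within the 9, folds ran from 5.05 to 7.60 and tags from 12 to 18. The interval of the highest, at Trp53, reached down to 10.7, and that of the lowest, at Ccnd1, reached up to 21.0, so the tags set no order among the 9.

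**Figure D3:**
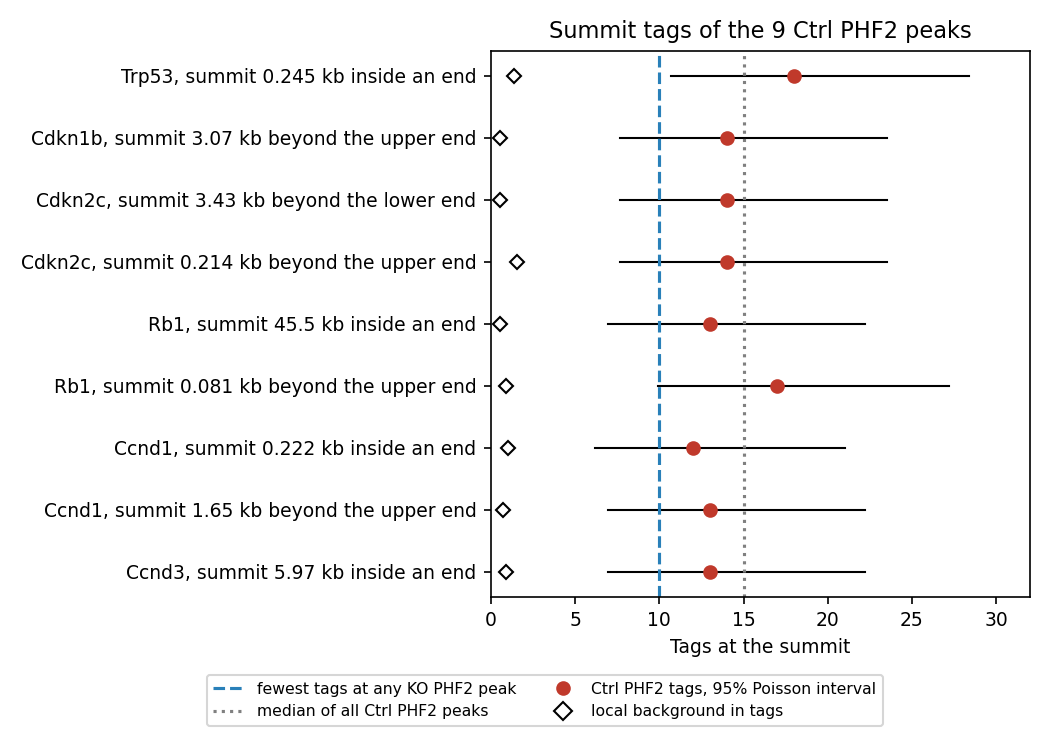
Tags at the summit of each of the 9 Ctrl PHF2 peaks (red points) with exact Poisson 95% intervals, and the local background in tags (open diamonds). The dashed line marks the 10 tags of the weakest KO PHF2 peak and the dotted line the Ctrl PHF2 median of 15. Every point lies above the dashed line, but all intervals except that of Trp53 reach below it. A less close solution of 9 tags for Ccnd3, not drawn, would lie below the line. Read totals are unknown, so the dashed line is not a limit for calling these sites.

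Most summits lay near a start of transcription, as over the whole list. Of the 9, 8 (88.9%, Wilson 95% interval 56.5 to 98.0) had their summit within 500 bp of a listed transcription start of some gene, or of a gene end where no start is listed. Over all Ctrl PHF2 peaks, which need not lie near a gene, the share was 1016 of 1621, or 62.7% (60.3 to 65.0). The 9 were taken from windows around genes chosen partly for their peaks, so the shares are not compared as a result. By gene, 5 of the 10 (Trp53, Cdkn2c, Rb1, Ccnd1 and Ccnd3) had a summit within 1 kb of their own start or, for Rb1 and Ccnd1, of an end; over all protein-coding genes this was 5.99%. The Cdkn1b peak lay in the 5 kb past the gene, with its summit nearer to the listed start of Lockd than to that of Cdkn1b. Cdkn2c, Rb1 and Ccnd1 each had 2 peaks, and 1.08% of all protein-coding genes had 2 or more. Since presence in the lists was part of the choice of genes, these counts are not set against 5.99% or 1.08% as a result. Of all protein-coding genes of 20 kb and over, 11.0% had a Ctrl PHF2 peak in the window, and of shorter ones 4.34%. Within the 10, length did not sort the genes. Rb1, the longest at 133 kb, had 2 peaks, but so did Cdkn2c (5.88 kb) and Ccnd1 (9.9 kb). Rbl2 (53.8 kb) had none.

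The 5 kb limit fell in a gap between peaks. Just inside it were the peak near Cdkn1b, 2863 bp from the gene, and the distal peak of Cdkn2c, 3233 bp away. Just outside were a Ctrl PHF2 peak 9.93 kb from Cdkn2c, at Faf1, with a fold of 7.89, and one 13.2 kb from Trp53, at Atp1b2, with a fold of 8.16.

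In KO muscle none of the 9 sites had a PHF2 peak. Taking 3 counts as the limit for 0 seen, 0 of 9 allows a share of up to 33.3%. The sites were not drawn at random and some share a gene, so this limit is only rough. The nearest KO PHF2 peak to any of the genes lay 80.0 kb from Trp53, from 69671870 to 69672193 on chromosome 11, with a fold of 5.85. At the other 9 genes the nearest KO PHF2 peak was between 2.30 Mb (Mdm2) and 26.7 Mb (Cdkn1b) away. The weakest KO PHF2 peak had 10 tags, fewer than the 12 to 18 of the 9 Ctrl peaks. Read totals are unknown, however, so tags of the KO and Ctrl libraries are not on a common scale. Tags in KO muscle at sites with no called peak were not measured. Of the 994 Ctrl PHF2 peaks with 12 to 18 tags, 35 (3.52%, Wilson interval 2.54 to 4.86) overlapped a KO PHF2 peak. Over the whole Ctrl list it was 114, or 7.03% (5.89 to 8.38). The absence of KO peaks at the 9 sites is therefore what most Ctrl peaks of this size showed, and is not shown to be particular to these genes. No IgG peak overlapped any of the 9, but none overlapped any of the 1621 Ctrl PHF2 peaks either. This absence is not particular to these sites.

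The promoter letters of 7 of the 10 genes, in 10 windows, were in the RefSeq table; Rb1, Ccnd1 and Ccnd2 were not matched. The windows nearest to the Trp53 and Ccnd3 peaks are set beside those of Mdm2 and the second Cdkn1a start, which had no peak. They are examples of windows near a peak and far from one, and other windows far from a peak are summarised after them. Capitals mark the motifs searched on both strands: the GC box GGGCGG, the TATA box TATAAA, the CCAAT box, the E-box CACGTG, the cAMP response element TGACGTCA, and TTTCCCGC and TTTGGCGC as letters bound by E2F. The windows are chr11:69580109-69580408 (Trp53, plus strand), chr17:47593217-47593516 (Ccnd3, plus), chr10:117710709-117711008 (Mdm2, minus) and chr17:29093519-29093818 (Cdkn1a, plus).
Trp53: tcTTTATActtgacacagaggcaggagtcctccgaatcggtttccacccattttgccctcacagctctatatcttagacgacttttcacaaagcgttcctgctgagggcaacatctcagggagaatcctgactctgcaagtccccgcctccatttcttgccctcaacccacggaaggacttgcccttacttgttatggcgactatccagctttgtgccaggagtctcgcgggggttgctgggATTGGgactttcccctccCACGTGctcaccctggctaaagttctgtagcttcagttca
Ccnd3: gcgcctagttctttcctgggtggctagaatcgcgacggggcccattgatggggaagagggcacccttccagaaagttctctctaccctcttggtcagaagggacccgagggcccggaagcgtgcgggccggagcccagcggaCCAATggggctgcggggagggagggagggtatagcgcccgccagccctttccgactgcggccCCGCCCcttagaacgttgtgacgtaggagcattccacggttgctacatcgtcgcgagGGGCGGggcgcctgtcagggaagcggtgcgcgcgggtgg
Mdm2: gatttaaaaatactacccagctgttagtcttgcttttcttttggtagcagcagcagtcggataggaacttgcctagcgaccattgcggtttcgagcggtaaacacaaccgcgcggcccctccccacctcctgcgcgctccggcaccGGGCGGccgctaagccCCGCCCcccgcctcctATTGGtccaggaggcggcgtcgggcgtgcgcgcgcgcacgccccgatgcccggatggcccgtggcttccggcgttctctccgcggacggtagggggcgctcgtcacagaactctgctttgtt
Cdkn1a: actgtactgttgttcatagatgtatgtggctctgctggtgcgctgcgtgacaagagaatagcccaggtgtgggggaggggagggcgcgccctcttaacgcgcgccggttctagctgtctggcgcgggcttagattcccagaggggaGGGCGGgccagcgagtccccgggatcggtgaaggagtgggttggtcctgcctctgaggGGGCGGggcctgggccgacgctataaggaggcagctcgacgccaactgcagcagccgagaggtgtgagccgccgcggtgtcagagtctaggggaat
The Trp53 peak began 27 bp beyond its window and the Ccnd3 peak 63 bp beyond. Trp53 had 10 CpGs, no GC box, and 1 copy each of the CCAAT box, the E-box and TATAAA, the only TATAAA among the 10 windows. That match was on the opposite strand, at the upstream end of the window and far from the start, so it is a match of letters only. The Ccnd3 window had 28 CpGs and 2 GC boxes, the Mdm2 window 35 CpGs and 2 GC boxes, and this Cdkn1a window 23 CpGs and 2 GC boxes. The windows over 1 kb from a peak that are not shown varied more widely. The first Cdkn1a start had 2 CpGs and none of the motifs, and the inner Cdkn2c start had 8 CpGs and no GC box. Rbl2 had 14 CpGs and 1 GC box, the first Ccnd3 start 15 and 2, and Cdkn1b 30 and 1.

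**Figure D4:**
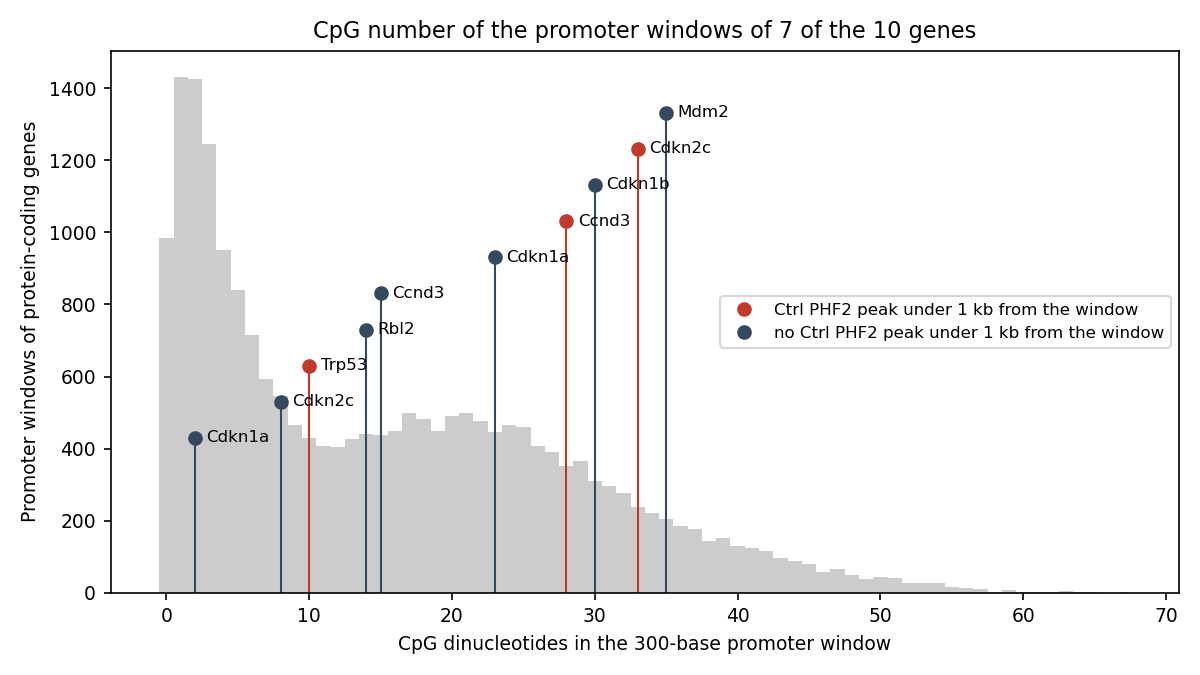
CpG dinucleotides in the 300-base promoter window (horizontal axis) of all 21263 windows of protein-coding genes in the table (grey bars, number of windows) and of the 10 windows of 7 of the genes (points; stem heights only separate the labels). Windows with a Ctrl PHF2 peak under 1 kb away (red) have 10, 28 and 33 CpGs, and Mdm2, with no peak, has 35.

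Over the 10 windows, 7 held a GC box, against 46.2% of the 21263 windows of protein-coding genes. The CCAAT box stood in 5, against 38.2%, the E-box in 2, against 7.84%, and the TATA box in 1, against 12.6%. None held the cAMP response element (2.23% of all windows), TTTCCCGC (1.41%) or TTTGGCGC (0.635%). The median window of all protein-coding genes had 13 CpGs. The 808 windows that overlapped a Ctrl PHF2 peak had a median of 29 CpGs and the other 20455 a median of 12. Mdm2 and Cdkn1b, with 35 and 30 CpGs and no peak at their starts, had more CpGs than the median window at a peak, and Trp53, with 10, had fewer.

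Other genes of the pathway were taken as 6 lists, none of which holds any of the 10 genes. Of their 115 members 1 (0.870%) had a KO PHF2 peak and 14 (12.2%) had a Ctrl PHF2 peak, beside 0.713% and 7.38% of all protein-coding genes. Of 31 p53 regulators and targets, 0 had a KO PHF2 peak and 6 had a Ctrl PHF2 peak. The highest folds there were 8.83 at Gadd45a, a growth arrest gene, 8.01 at the kinase gene Plk2, 7.79 at the cyclin G gene Ccng2 and 7.64 at Gadd45g, followed by Btg2 and Ccng1. The Mdm2 relative Mdm4 and the cell death genes Bax, Bbc3 and Pmaip1 were among those with no peak. Of 20 other cyclins, 4 had a Ctrl PHF2 peak, namely Ccnyl1 (7.41), Ccni (5.96), Ccnl1 (5.70) and Ccny (5.70). The rest of this list had none, both the cyclins A, B and E, which drive DNA replication and mitosis, and others such as Ccnh, Ccnk and Ccnt1. With 7.38% of all genes at a Ctrl PHF2 peak, few would be looked for among so few genes.

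Of 15 cyclin-dependent kinases and inhibitors, 2 had a Ctrl PHF2 peak: Cdk6 (6.37), a partner of the D cyclins, and Cdk13 (6.34), a kinase of RNA polymerase. None of the 16 genes of the Rb family, E2F and DP list and none of the 22 proliferation genes, among them Mki67, Top2a and Mcm2, had a PHF2 peak in either genotype. With 7.38% of all genes at a Ctrl PHF2 peak, few would be looked for in lists this short, and these counts are not told apart from the background. Of 11 ubiquitin ligases of cyclins and inhibitors, 1 had a KO PHF2 peak and 2 a Ctrl PHF2 peak. Cul1, the scaffold of SCF ligases, had both. The KO peak had a fold of 6.64 and 13 tags (6.92 to 22.2), and the Ctrl peak a fold of 6.99 and 20 tags (12.2 to 30.9). Tags of the KO and Ctrl libraries are not on a common scale, so these are not compared. Rchy1, a ligase of p53, had a Ctrl PHF2 peak only (5.90).

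**Figure D5:**
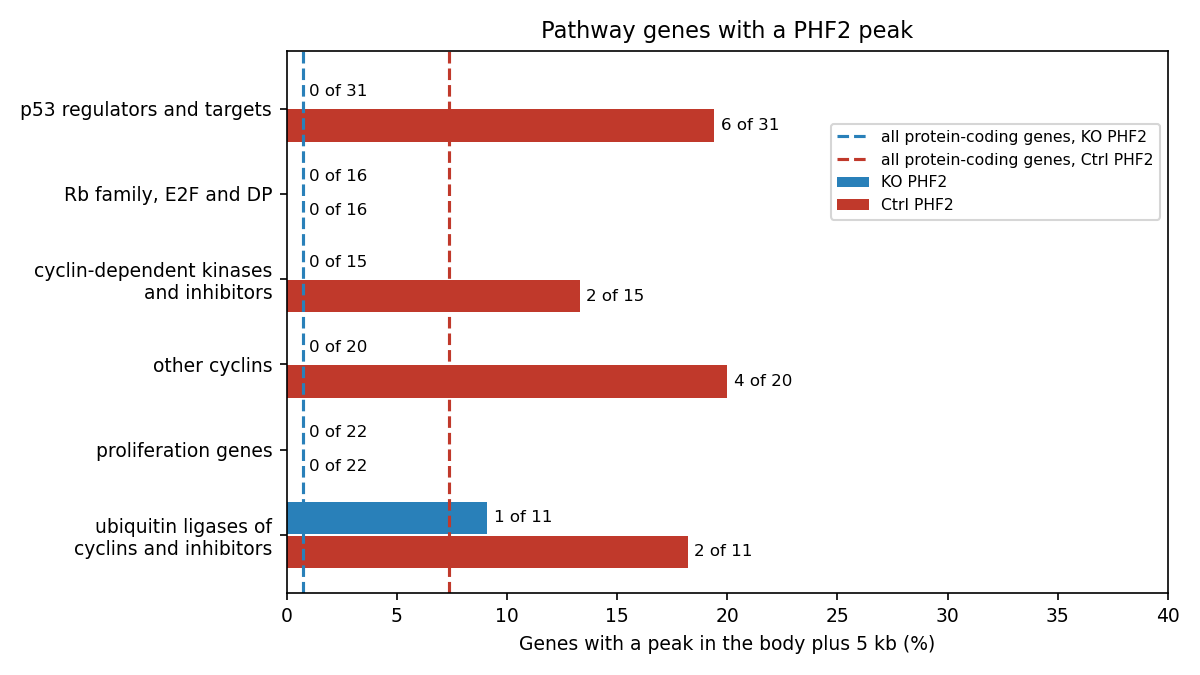
Percent of genes in each of the 6 pathway lists with a KO PHF2 peak (blue) or a Ctrl PHF2 peak (red) in the gene body plus 5 kb, with counts; dashed lines give the shares of all protein-coding genes, 0.713% for KO and 7.38% for Ctrl. The p53 list (6 of 31) and the other cyclins (4 of 20) have the highest Ctrl PHF2 shares, and the E2F and proliferation lists have no bar.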

How the data were processed

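CUT&RUN peak lists of 4 libraries were used, grouped by sample title. The submitters' processing notes name Bowtie2, MACS2 and the mm10 build; versions, settings, duplicate handling and the control library were not given in the sources used here. In the deposited lists, the fold (a ratio of summit to local background), the -log10 p and the -log10 q are the authors' own, and the deposited score follows the -log10 q. Peak names carry 1 library each.

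Peaks were written 1-based and assigned to RefSeq gene bodies of GRCm38.p6 plus 5 kb. That table has neither strands nor exons, so exons, introns and UTRs were not told apart; strand and starts came from the promoter table, and gene ends were used where it lists no start. For PHF2 lists, the pileup P and background B were solved from fold = (P + 1) / (B + 1) and the Poisson upper tail. Divided by a single factor per library (0.609 in KO, 0.649 in Ctrl), P came out whole, to within 0.005, for all 84 distinct pairs of values in KO and all 309 in Ctrl. Other factors reached 61.9% and 49.8%. At Ccnd3 a second solution of 9 tags deviated by 0.00162, and the 13 tags given deviated least. A second whole solution existed for 3 of 161 KO and 87 of 1621 Ctrl peaks, and the closest was taken. The method was tested on simulated peaks. Read totals are unknown.

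All 10 genes were named, with up to 4 genes of each pathway list by Ctrl PHF2 fold; Btg2, Ccng1 and genes without a peak were named after their values were seen. The genes and lists were chosen with earlier results of these data known. Alternatives were a stricter q, other windows, the summit alone, other overlap rules, merged peaks, other distances to the start and shorter Ctrl lists. Scripts ran in Python 3.11.15 with pandas 2.3.3, SciPy 1.17.1, matplotlib 3.10.9 and NumPy 2.4.6.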

Additional observations from a re-analysis of the deposited data

How the results depend on the processing

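No paired analysis was possible because there was 1 library per group, which also left no replicate to drop. Over the counts and shares at the 10 genes and over all protein-coding genes, 38 alternatives stayed within their limits and 8 moved. Many that stayed were counts of 0, and a stricter rule cannot add peaks, so some of these could not have moved. The limits for counts were wide, and a fall from 9 to 6 Ctrl PHF2 peaks with 1 kb stayed within them. The tally therefore does not measure how firm the results are. Cut to its 161 peaks of highest fold, the length of the KO PHF2 list, the Ctrl PHF2 list had a peak at 0 of the 10 genes and at 0.781% of all protein-coding genes. The share of all genes with a Ctrl PHF2 peak was 6.59% at a -log10 q of at least 3, 6.88% with 1 kb and 9.57% with 20 kb around the gene, and 6.75% with Ctrl peaks at or above the lowest KO -log10 p. The share with a KO PHF2 peak was 0.544% at the stricter q, and that with an IgG peak was 0.283% with 20 kb. Fewer peaks, or a narrower or wider window, account for these by construction. With 1 kb around the gene, 5 of the 10 genes and 6 Ctrl PHF2 peaks were left, since the peak near Cdkn1b, the distal Cdkn2c peak and the outer Ccnd1 peak start 2863, 3233 and 1364 bp from their genes. The weakest called peak had 10 tags in KO PHF2 and 8 in Ctrl PHF2, and tags at sites with no called peak are unknown.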

Other observations

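Both IgG libraries had a peak inside Cdk8, a kinase gene of the mediator complex and the only gene of the 6 pathway lists with an IgG peak, with a fold of 18.0 in KO IgG and 12.7 in Ctrl IgG. A few cell type markers were looked up for peaks, and none had a KO PHF2 peak. Of 7 fibre markers, 2 had a Ctrl PHF2 peak: Des, with a fold of 9.98 and 21 tags, and Ttn, with 5.55 and 11 tags, while Acta1, Ckm, Myh1, Myh2 and Myh4 had none. So did 1 of 3 endothelial markers (Cdh5, 5.98, but not Pecam1 or Kdr) and 1 of 2 immune markers (Cd68, 5.96, but not Ptprc). None of 3 satellite cell, 2 fibro-adipogenic and 2 smooth muscle markers had one. The share over all protein-coding genes was 7.38%. Peaks measure no expression, and which cells gave a peak was not tested.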
